A study of Mus musculus with 6 samples.

Results

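The 10 genes described here encode the MHC class II antigen presentation route and the main costimulatory molecules of antigen-presenting cells: the class II chains H2-Aa, H2-Ab1 and H2-Eb1, the peptide exchange factor subunits H2-DMa and H2-DMb1, the invariant chain Cd74, the class II transactivator Ciita, and the costimulatory genes Cd80, Cd86 and Cd40. They were taken by gene symbol from a table of 16836 genes, in which all 10 had a row, and all 10 were among the 12118 genes tested. Their values come from mRNA sequencing of mouse bone marrow-derived macrophages, phagocytes matured in culture from marrow precursors. The knockout libraries (KO, n = 3) came from mice lacking Ube3a, an E3 ubiquitin ligase gene, and the wild-type libraries (WT, n = 3) from their littermates. The labels state neither the knockout allele, nor the age or sex of the mice, nor any stimulus. They also do not say that the 3 libraries of a genotype are from different mice or cultures. The level of Xist, given below, sets replicate 2 of each genotype apart from replicates 1 and 3. The 3 libraries were thus not all from the same material. Whether replicates 1 and 3 were from different mice is not known, and the spread on which the p-values rest may be partly technical. In bulk RNA of this kind, fewer cells of a type and less RNA per cell cannot be told apart.

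MHC class II molecules are pairs of an alpha and a beta chain that display peptides from ingested proteins to CD4+ T cells. The invariant chain guides them from the endoplasmic reticulum to the endosomes and blocks their groove, and H2-DM exchanges its last fragment for peptide. CIITA does not bind DNA itself but is recruited by factors on class II promoters and sets whether the genes are transcribed, and in macrophages it is known to be induced by interferon-gamma. CD80 and CD86 engage CD28 and CTLA-4 on T cells, and CD40 receives the CD40 ligand signal from them.

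The promoters of class II genes share an X box, bound by the RFX complex, and a Y box, bound by NF-Y, at a conserved spacing, and this is where CIITA docks. Stretches of such promoters are shown because 3 of the members carry this layout. RefSeq promoter windows on GRCm38.p6, from 250 bases before to 50 bases after the start, were matched by symbol for 5 of the 10 members (H2-Aa, H2-Eb1, H2-DMa, H2-DMb1 and Cd80). The search asked for GNAAC, a core of X boxes, followed on the same strand by ATTGG, the core of the Y box, with 25 to 30 bases between them, on both strands. This spacing was set after these promoters had been read. The pair was found in H2-Aa, H2-Eb1 and H2-DMb1, and in 1.04% of all 32851 windows of the same length, while ATTGG alone was in 37.4% and GNAAC alone in 84.8% of them. A match is a description of these letters, not a measured site. In the following stretches the capitals mark GNAAC and ATTGG. They lie at chr17:34287855-34287916 (minus strand) for H2-Aa, chr17:34305764-34305824 for H2-Eb1 and chr17:34153085-34153146 for H2-DMb1, and, for 2 other class II genes with the same pair, at chr17:34092291-34092352 for H2-Oa and chr17:34238806-34238864 for H2-Ob (all plus strand except H2-Aa).
H2-Aa: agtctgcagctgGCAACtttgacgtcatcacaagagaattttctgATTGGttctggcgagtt
H2-Eb1: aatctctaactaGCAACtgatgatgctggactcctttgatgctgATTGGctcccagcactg
H2-DMb1: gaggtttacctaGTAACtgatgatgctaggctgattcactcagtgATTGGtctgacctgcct
H2-Oa: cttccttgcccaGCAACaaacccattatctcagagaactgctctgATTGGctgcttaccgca
H2-Ob: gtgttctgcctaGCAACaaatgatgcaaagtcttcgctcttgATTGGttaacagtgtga
The Y core began 48, 59 and 61 bases before the RefSeq start in H2-Aa, H2-Eb1 and H2-DMb1, and the X core 81, 91 and 94 bases before it. In the RefSeq window of Cd80 the pair was not found. For H2-DMa the windows searched were chr17:34122582-34122881 and chr17:34125268-34125567, and neither held the pair. The first overlaps Brd2, which reaches 34122634 on the minus strand. Any other start of H2-DMa, whose gene model runs to 34139101, was not searched, so the pair cannot be called absent from this gene. Nor was the exact pair found in the window of H2-DMb2, which was searched along with H2-Oa and H2-Ob. There ATTGG is present, and TTAAC stands where H2-DMb1 has GTAAC.

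Each library held between 25454862 and 35517269 reads on the genes of the table, and a single read (1 read) made up 0.0277 to 0.0400 CPM, the unit that sets the reads of a gene against the scaled size of its library. Ube3a stood at 69.7, 61.2 and 77.0 CPM in KO replicates 1 to 3, against 207.1, 193.7 and 177.6 CPM in WT replicates 1 to 3, so the libraries matched their labels. Xist was at 0.900 CPM in KO replicate 2 and 0.495 CPM in WT replicate 2, and at 1087 CPM or more in every other library. The 20 interferon-induced genes listed as an interferon signature (Ifit1, Isg15, Irf7 and others) stood far apart between libraries of one genotype. Relative to the mean of all 6 libraries, on the log2(CPM + 1) scale, their mean level was 0.96, −0.80 and 0.18 for KO replicates 1 to 3, against −0.72, 0.82 and −0.43 for WT replicates 1 to 3. The 12 core macrophage genes summed to between 15624 and 18235 CPM in KO and between 16437 and 17531 CPM in WT, with Lyz2 and Csf1r the 2 most abundant. Of 11 listed B cell genes 3 had values, of which Ms4a1, the gene of CD20, was at 0.120 CPM or less in every library, and Ighm at 28.7 to 62.7 CPM. Of 14 dendritic cell genes 8 had values, and the defining genes Flt3 and Zbtb46 were at 0.386 CPM or less in every library. Their sum was 75.6 to 105.6 CPM in KO and 93.3 to 155.8 CPM in WT, nearly all of it from Itgax, which macrophages also express, and Cd24a, which many immature blood cells carry. Cd24a was at 11.4, 17.7 and 23.3 CPM in KO replicates 1 to 3, against 52.5, 7.32 and 49.0 CPM in WT replicates 1 to 3, and exceeded Itgax in WT replicates 1 and 3. The 7 monocyte genes summed to 423.8 to 608.7 CPM in KO and 377.0 to 715.3 CPM in WT, lowest in KO replicate 1 and WT replicate 2. No marker of these lists was called, and their part in the results was not tested.

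No member passed the test for a difference between the genotypes. Between KO and WT the log2 fold changes ran from −0.12 for H2-DMa to 0.36 for H2-Eb1, with a median of 0.058 over the members and 0.0015 over all genes tested, and 7 were positive and 3 negative (50.4% of all genes tested were positive). A gene is called changed when its limma p-value, adjusted over all genes tested by the Benjamini-Hochberg method, is under 0.05. Among the members 0 of 10 were called, against 0.0165% of all genes tested (2 genes, Ube3a and Fah), and 0 had an unadjusted p under 0.05, against 4.13% of all genes. The adjusted p-values lay between 0.866 and 0.990 (limma), and limma-voom on the reads likewise called 0 of the 10. In 0 of 10 members did all KO libraries lie on one side of all WT libraries, which was so for 9.95% of the genes tested. On the log2(CPM + 1) scale, the 95% interval stayed inside 1.5-fold in either direction for 9 of the 10 members, as it did for 90.4% of all genes tested. The exception was H2-Eb1. All folds are on the log2(CPM + 1) scale, which understates the change in CPM, most for genes near 1 CPM such as Ciita. An interval inside 1.5-fold on this scale can therefore reach beyond 1.5-fold in CPM.

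**Figure D1:**
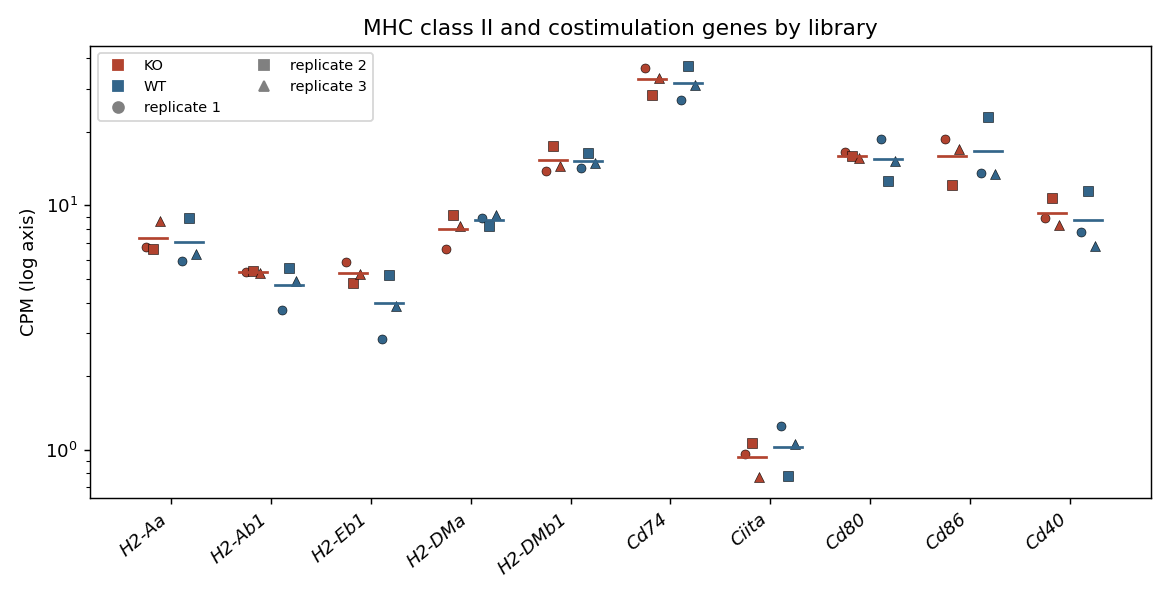
CPM of the 10 genes in each library, on a log axis, with KO to the left of WT for each gene. Points are libraries, shaped by replicate, and bars are genotype means (n = 3 each). For every gene the KO and WT points overlap.

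Of the class II chains, H2-Eb1, the beta chain of the I-E molecule, had the widest gap between genotypes. H2-Ea, the gene of the I-E alpha chain, had no row under that symbol or a synonym. H2-Eb1 stood at 5.84, 4.82 and 5.21 CPM in KO replicates 1 to 3, against 2.85, 5.16 and 3.88 CPM in WT replicates 1 to 3. Both other WT libraries were below every KO library, but WT replicate 2 lay among them. The means were 5.29 ± 0.515 CPM in KO and 3.97 ± 1.16 CPM in WT (SD, n = 3 each), with a log2 fold change of 0.36 (95% interval −0.036 to 0.76, limma adjusted p = 0.866). In the authors' deposited table the same gene has a log2 fold change of 0.45 and an unadjusted p-value of 0.0562. With 1 library left out, the log2 fold change was lowest without WT replicate 1, at 0.19. Without WT replicate 2 it was highest, at 0.53, with a limma adjusted p of 0.299. In that fit 0 of 10 members were called, against 0.066% of all genes, and 2 (H2-Eb1 and Cd40) had an unadjusted p under 0.05, against 10.6% of all genes. The libraries did not overlap for 4 of the 10, against 30.1% of all genes.

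H2-Ab1, the beta chain of I-A, stood at 5.32, 5.37 and 5.27 CPM in KO replicates 1 to 3, against 3.71, 5.52 and 4.88 CPM in WT replicates 1 to 3. The KO libraries were nearly level, and the WT libraries reached both below and above them. Its log2 fold change was 0.16 (95% interval −0.15 to 0.47, limma adjusted p = 0.866). The I-A alpha chain, H2-Aa, which pairs with it, was measured at 6.76, 6.65 and 8.66 CPM in KO replicates 1 to 3, against 5.92, 8.91 and 6.32 CPM in WT replicates 1 to 3. For H2-Aa both the highest and the lowest library were WT, and the log2 fold change was 0.064 (95% interval −0.31 to 0.44, limma adjusted p = 0.938). H2-Aa, H2-Ab1 and H2-Eb1 lie side by side on chromosome 17 in GENCODE M21 (GRCm38), at 34282744 to 34287823 on the minus strand, 34257689 to 34269419 on the plus strand and 34305867 to 34316674 on the plus strand. No stretch of 50 bases of the H2-Ab1 or H2-Eb1 transcripts occurs in a transcript of another gene, and for H2-Aa 0.488% of such stretches do.

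Cd74, the invariant chain, had the highest level of the 10 genes. It stood at 36.7, 28.4 and 33.3 CPM in KO replicates 1 to 3, against 26.9, 37.0 and 31.1 CPM in WT replicates 1 to 3, with 841 to 1120 reads per library. KO replicate 1 and WT replicate 2 were the highest, and the groups overlapped over nearly their whole range. The means were 32.8 ± 4.18 CPM in KO and 31.7 ± 5.08 CPM in WT, a log2 fold change of 0.052 (95% interval −0.25 to 0.36, limma adjusted p = 0.938). The sum of H2-Aa, H2-Ab1, H2-Eb1, H2-DMa, H2-DMb1 and Cd74 was 74.0 ± 1.94 CPM in KO and 71.3 ± 9.42 CPM in WT (SD, n = 3 each).

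The subunits of H2-DM had other orders over the libraries than the chains. H2-DMb1, the beta subunit, stood at 13.9, 17.5 and 14.6 CPM in KO replicates 1 to 3, against 14.3, 16.4 and 14.9 CPM in WT replicates 1 to 3, with replicate 2 the highest in both genotypes. Its log2 fold change was 0.0062 (95% interval −0.24 to 0.25, limma adjusted p = 0.990). Of its 50-base stretches 22.7% also occur in H2-DMb2, a near copy, so reads from those parts cannot be assigned with certainty. H2-DMb2 itself held 7 to 17 reads per library, under the filter. H2-DMa, the alpha subunit, stood at 6.64, 9.09 and 8.23 CPM in KO replicates 1 to 3, against 8.84, 8.21 and 9.10 CPM in WT replicates 1 to 3. KO replicate 1 was the lowest of the 6, and the log2 fold change was −0.12 (95% interval −0.40 to 0.16, limma adjusted p = 0.879). H2-DMa shares 360 exon bases, 10.4% of its own, with Brd2 on the opposite strand, a chromatin reader gene at 218.6 to 251.3 CPM in KO and 222.1 to 241.8 CPM in WT. No source used here says whether strand was used in the counting, and without it reads of H2-DMa and Brd2 cannot be told apart in that part.

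Ciita, the regulator of these genes, was close to the limit of what was tested. It held 24, 33 and 25 reads in KO replicates 1 to 3, against 39, 22 and 38 reads in WT replicates 1 to 3, or 0.771 to 1.06 CPM in KO and 0.778 to 1.25 CPM in WT. The ranges of the genotypes overlapped, and the log2 fold change was −0.067 (95% interval −0.39 to 0.26, limma adjusted p = 0.928). The squared deviations of its libraries from their genotype mean were 1.17 times those of pure counting error, so the differences between its libraries were of the size that counting alone gives. Over all genes tested the median of that ratio was 5.43, and among the members it reached 19.7 for Cd74 and 39.1 for Cd86. Ciita shares 329 exon bases, 3.45% of its own, with Dexi on the opposite strand. Dexi held 203 to 281 reads per KO library and 184 to 287 reads per WT library, several times those of Ciita, and without strand the reads of the shared bases cannot be assigned to either gene.

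The costimulatory genes had genotype means that differed by less than the SD of the WT libraries. For Cd86 and Cd40 they also differed by less than the SD of the KO libraries. For Cd80 they did not, as its KO libraries lay close together (SD 0.481 CPM in KO, 3.07 CPM in WT). Cd86 stood at 18.7, 12.1 and 17.0 CPM in KO replicates 1 to 3, against 13.5, 23.1 and 13.4 CPM in WT replicates 1 to 3. WT replicate 2 and KO replicate 1 were the highest, and the lowest library was KO replicate 2. The log2 fold change was −0.040, with an interval of −0.56 to 0.48 (95%, limma adjusted p = 0.971), and the highest library was 1.91 times the lowest. The 2 libraries high in Cd86 were also those high in the interferon signature and in Itgax, which stood at 90.5, 58.5 and 48.6 CPM in KO replicates 1 to 3, against 40.9, 145.8 and 41.6 CPM in WT replicates 1 to 3. The part of either in the Cd86 values was not tested.

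Cd80, which binds the same receptors, had another order. It stood at 16.5, 15.9 and 15.6 CPM in KO replicates 1 to 3, against 18.7, 12.6 and 15.1 CPM in WT replicates 1 to 3. WT replicate 1 was the highest and WT replicate 2, where Cd86 was highest, the lowest. Its log2 fold change was 0.063 (95% interval −0.24 to 0.37, limma adjusted p = 0.927). Cd40, the receptor for CD40 ligand, stood at 8.88, 10.8 and 8.32 CPM in KO replicates 1 to 3, against 7.78, 11.4 and 6.82 CPM in WT replicates 1 to 3. Replicate 2 was the highest in each genotype, and these are the libraries with almost no Xist. The log2 fold change of Cd40 was 0.11 (95% interval −0.30 to 0.53, limma adjusted p = 0.912). In GENCODE M21 (GRCm38), Cd80 lies on chromosome 16 at 38455561 to 38496335 (plus strand), Cd86 on the same chromosome at 36603869 to 36666081 (minus strand) and Cd40 on chromosome 2 at 165055627 to 165072948 (plus strand).

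**Figure D2:**
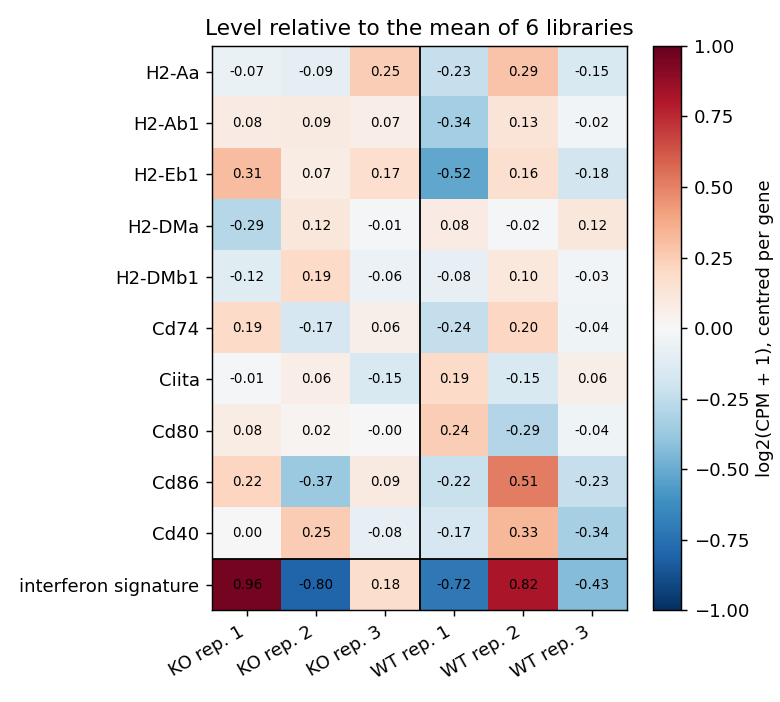
Level of each gene and of the 20 interferon signature genes in each library, relative to the mean of all 6 libraries, on the log2(CPM + 1) scale, with KO libraries to the left of WT libraries. The interferon signature spans −0.80 to 0.96 and Cd86 spans −0.37 to 0.51, with the same pair of libraries, KO replicate 1 and WT replicate 2, highest in both.

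The order by level was read per kb of exon in GENCODE M21, as means over all 6 libraries. Cd74 led with 19.2 CPM per kb, at percentile 77.2 of the genes tested, and H2-DMb1 followed with 9.07 CPM per kb, at percentile 57.4. Cd86 and Cd80 came next with 4.46 and 4.25 CPM per kb, and each was above the other in 3 of 6 libraries. Below them, Cd40 at 2.64, H2-DMa at 2.42, H2-Eb1 at 2.38, H2-Ab1 at 1.95 and H2-Aa at 1.90 CPM per kb formed a run in which the range of each gene over the libraries overlapped that of the next. Within a library, H2-Eb1 was above H2-Ab1 per kb in 6 of 6 libraries, Cd40 above H2-DMa in 4 of 6, and the other neighbours of the run in 3 of 6 each. Ciita was the lowest at 0.103 CPM per kb, at percentile 0.0908. The steps from Cd74 to H2-DMb1, from H2-DMb1 to Cd86, from Cd80 to Cd40 and from H2-Aa to Ciita were the ones at which the ranges of the 6 libraries did not overlap. Exon lengths take in all annotated transcripts, so a gene with long rare transcripts reads lower per kb.

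**Figure D3:**
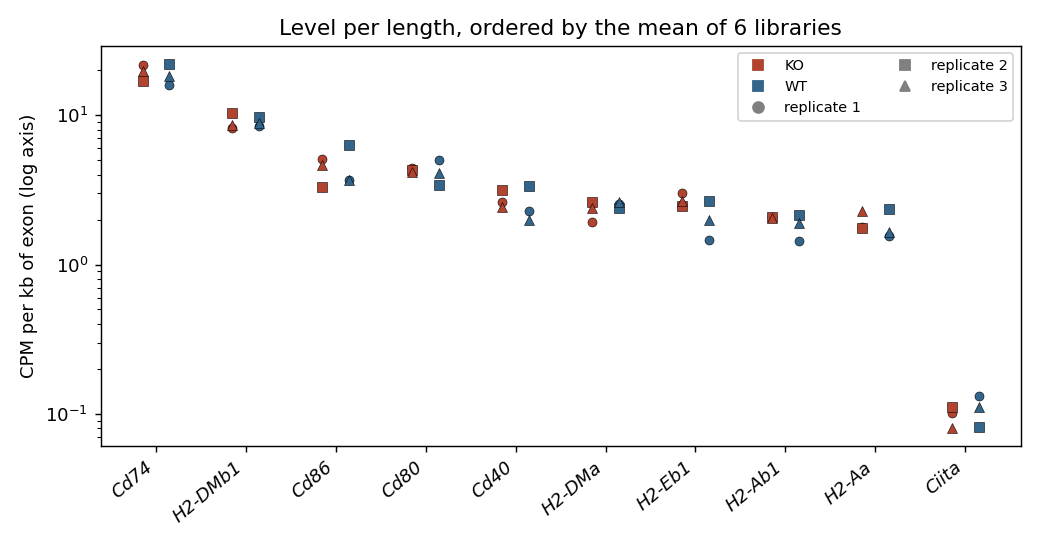
Level of each gene per kb of exon in each library, on a log axis, ordered by the mean of all 6 libraries, with KO to the left of WT. Cd74 stands highest at a mean of 19.2 and Ciita lowest at 0.103 CPM per kb.

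Over the libraries the members had more than one order. H2-Ab1, H2-Aa and Cd74 were highest in WT replicate 2, and H2-Eb1 in KO replicate 1, while these 4 genes were each lowest in WT replicate 1. Across the members, WT replicate 2 was the highest library for 5 genes, and KO libraries were highest for 2. Relative to the mean of all libraries, the class II profile (the mean of the chains, H2-DM and Cd74) was 0.017, 0.036 and 0.078 for KO replicates 1 to 3, against −0.22, 0.14 and −0.051 for WT replicates 1 to 3, on the log2(CPM + 1) scale. Pearson's r over the 6 libraries was 0.93 between H2-Ab1 and H2-Eb1, 0.90 between Cd74 and Cd86 and −0.96 between Ciita and H2-Aa. These are descriptions of 6 points that share depth and preparation, and the reads of Ciita vary no more than counting gives.

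Among 9952 other genes with a mean of at least 5 CPM, 35 had an r of at least 0.95 with the class II profile over the 6 libraries. The closest were Map2k7 (r = 0.993), Jtb (0.987), Dennd5a (0.985), the cholesterol efflux pump gene Abca1 (0.985) and Smim14 (0.985). For Cd86 76 genes reached that r, among them Dram2 (0.995) and Fam220a (0.991). For Cd40 21 did, led by Frmd6 (0.997), Wdr11 (0.987) and Ascc2 (0.977). For Ciita 20 did, led by the integrin gene Itgal (0.991), Dync2h1 (0.983) and Cap1 (0.978), and for Cd80 7 did, led by Fech (0.978), Mical2 (0.972) and Pradc1 (0.959). These values were picked as the highest of all genes searched, over 6 libraries that share depth and preparation, and are a description.

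The other genes of the class II pathway gave no call. Of 23 listed genes 19 were tested, and limma called 0 of them, with 10 positive, 9 negative and a median log2 fold change of 0.027, while 3 of the 19 had an unadjusted p under 0.05. Over all genes tested, 0.0165% were called and 4.13% had an unadjusted p under 0.05. Genotypes did not overlap for 2 of the 19, against 9.95% of all genes tested. H2-Ob, the beta chain of H2-DO, which restrains H2-DM, stood at 2.40, 2.15 and 2.53 CPM in KO replicates 1 to 3, against 3.43, 2.76 and 3.13 CPM in WT replicates 1 to 3. Every KO library lay below every WT library, with a log2 fold change of −0.29 (95% interval −0.56 to −0.020, limma adjusted p = 0.866). Its partner H2-Oa was under the filter, with 6 to 19 reads per KO library and 8 to 32 per WT library. March1, a membrane ubiquitin ligase known to send class II molecules and CD86 for degradation, stood at 42.0, 42.0 and 48.2 CPM in KO replicates 1 to 3, against 52.5, 55.3 and 46.5 CPM in WT replicates 1 to 3. KO replicate 3 lay above WT replicate 3, and the log2 fold change was −0.22 (95% interval −0.42 to −0.011, limma adjusted p = 0.866). Ap1b1, a subunit of the AP-1 sorting adaptor, stood at 235.4 to 327.8 CPM in KO, against 202.8 to 234.9 CPM for WT. Its groups did not overlap, and the log2 fold change was 0.30 (95% interval 0.024 to 0.59, limma adjusted p = 0.866).

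The genes of the factors that bind class II promoters were expressed in both genotypes, and none was called. Rfx5, Rfxank and Rfxap, the RFX subunits, had log2 fold changes of −0.012, 0.16 and 0.092, and Nfya, Nfyb and Nfyc, the NF-Y subunits, had 0.027, −0.024 and 0.049. Rfx5 stood at 15.4 to 16.5 CPM in KO and 14.1 to 18.2 CPM in WT, and Nfya at 159.4 to 171.1 CPM in KO and 154.3 to 167.4 CPM in WT. Ctss, the protease that trims the invariant chain, stood at 790.7 to 1218 CPM in KO and 809.4 to 1149 CPM in WT, with KO replicate 1 and WT replicate 2 again highest (log2 fold change 0.11, 95% interval −0.32 to 0.53).

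**Figure D4:**
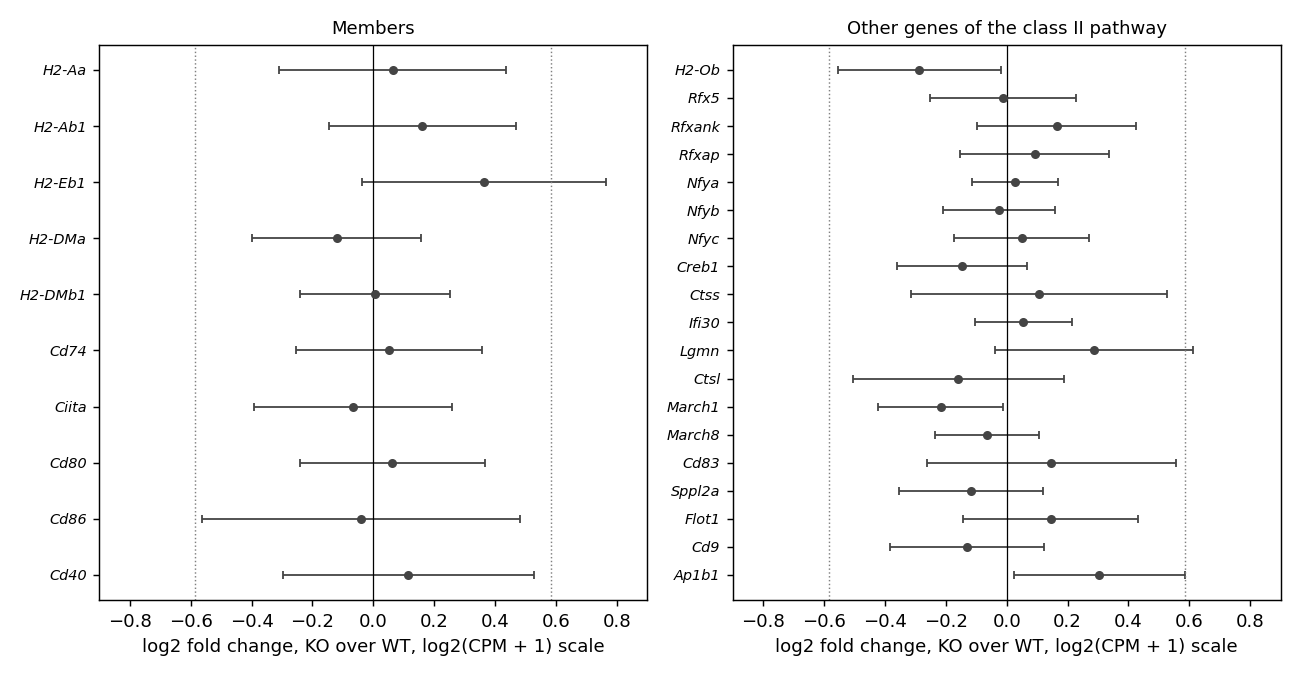
Log2 fold change of KO over WT on the log2(CPM + 1) scale, with 95% intervals (limma, n = 3 per genotype), for the 10 genes and for 19 other genes of the class II pathway. Dotted lines mark 1.5-fold. The interval of H2-Eb1 reaches 0.76, and no gene was called.

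The genes listed around the route from interferon-gamma to Ciita gave no call either. Of the 17 listed, which include Ciita itself and also Nlrc5, Myc and Prdm1, 16 were tested. Their median log2 fold change was −0.010 (7 positive, 9 negative). Of these 0 were called and 0 had an unadjusted p under 0.05, against 0.0165% and 4.13% of all genes tested. The 3 with the smallest unadjusted p were Spi1, the gene of the lineage factor PU.1 (log2 fold change 0.22), Irf8 (0.17) and Usf2 (0.16). In the interferon signature 18 of 20 genes were positive, against 50.4% of all genes tested, with a median of 0.26. Of these 20, 0 were called and 1 had an unadjusted p under 0.05, against 0.0165% and 4.13% of all genes tested. Their mean level ran from −0.80 to 0.96 within KO and from −0.72 to 0.82 within WT. Most of them were highest in KO replicate 1 or WT replicate 2, so their signs are not independent. The cause of the skew was not tested. The smallest unadjusted p was that of Cxcl10, a chemokine, at 4.59 to 6.38 CPM for KO and 6.40 to 7.68 CPM for WT, at a log2 fold change of −0.36 with no overlap (limma adjusted p = 0.866), and the next were those of Gbp2 (0.27) and Igtp (0.19), both GTPases.

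No gene was called among other ligands that act on T cells or among the CD40 signalling genes. Of 23 further costimulatory and coinhibitory genes 17 were tested, with a median log2 fold change of −0.017. Of these 0 were called and 0 had an unadjusted p under 0.05, against 0.0165% and 4.13% of all genes tested. Cd276, the gene of B7-H3, stood at 7.16, 13.1 and 10.1 CPM in KO replicates 1 to 3, against 8.84 to 17.5 CPM in WT, where replicate 2 was the lowest (log2 fold change −0.39, 95% interval −1.01 to 0.22, limma adjusted p = 0.866). The next by p were Tnfrsf14, the HVEM receptor gene (−0.17), and Sirpa, which binds CD47 (0.10). In the CD40 signalling list 16 of 16 genes were tested, with 0 called, against 0.0165% of all genes tested, and a median of −0.052. Genotypes did not overlap for 2 of the 16, among them Ikbkb with KO higher (log2 fold change 0.067), against 9.95% of all genes. An unadjusted p under 0.05 was found for 1 of the 16, against 4.13% of all genes. That gene was Map3k14, which encodes the kinase NIK of the non-canonical NF-kB route. It stood at 22.9, 21.8 and 23.6 CPM in KO replicates 1 to 3, against 24.3, 29.1 and 27.8 CPM in WT replicates 1 to 3, without overlap (log2 fold change −0.24, 95% interval −0.44 to −0.038, limma adjusted p = 0.866). Birc2 (−0.16), an E3 ligase that limits NIK, and Traf6 (−0.097), an adaptor of CD40, followed.

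With both libraries of low Xist left out, the values of several members lay further apart, and 0 of 10 were called, against 0.198% of all genes. In the 2 remaining libraries per genotype, KO replicates 1 and 3 and WT replicates 1 and 3, 8 of the 10 members showed no overlap between genotypes, which was then so for 42.8% of all genes tested, and 3 had an unadjusted p under 0.05, against 11.4% of all genes. These were H2-Eb1, with a log2 fold change of 0.59 (limma adjusted p = 0.163), Cd86, with 0.38 (limma adjusted p = 0.161), and Cd74, with 0.26 (limma adjusted p = 0.348). In those 4 libraries the interferon signature was at higher values in KO, at 0.96 and 0.18, against −0.72 and −0.43 in WT, and its part in these values was not tested. With KO replicate 1 and WT replicate 2 left out instead, the pair that led the interferon signature, 4 of 10 members showed no overlap, against 41.2% of all genes, and the log2 fold changes were 0.47 for H2-Eb1 (limma adjusted p = 0.493), 0.086 for Cd86 and 0.085 for Cd74. There 0 of 10 members were called, against 0.099% of all genes, and 1, H2-Eb1, had an unadjusted p under 0.05, against 8.55% of all genes. In the libraries kept there, the signature was at −0.80 and 0.18 for KO replicates 2 and 3, against −0.72 and −0.43 for WT replicates 1 and 3. Its part was not tested. This last choice of libraries was made after the data had been seen.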

How the data were processed

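Per the labels' protocols, RNA was purified with a Direct-zol kit and sequencing libraries came from the KAPA mRNA HyperPrep workflow. The submitters' processing notes name FastQC 0.11.15, Trimmomatic 0.36, Cufflinks, HTSeq 0.11.0 and HISAT2 2.1.0, without roles. Neither build nor annotation nor strand setting was given in the sources used here. In one table, the authors deposited log2 CPM per library, a log2 fold change and an unadjusted p-value for 16836 genes, each with at least 10 reads in all and a read in at least 3 libraries. Decimal marks lost from the table were restored, since each value, taken off the log scale and without the authors' prior count, is a whole number of reads (within 1e-06 of it, for 100% of values) times 1 step per library. Between 624 and 638 values per library had 2 possible readings. CPM use the authors' scaled library sizes, and limma-voom on these reads gave the authors' p-values within a relative gap of 5.03e-13.

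Each gene that reached 1 CPM in 3 or more libraries entered the test with limma 3.58.1 in R 4.3.3 (eBayes with an intensity trend) on log2(CPM + 1), with genotype as the only term. The steps were tested on simulated data. Replicate libraries differed by more than sampling noise (chi-square per degree of freedom 10.1 to 40.3), so none were merged. The members and lists were chosen with earlier results of these data known. The named genes are the members, called list genes and the 3 of each list with the smallest unadjusted p, defining and abundant markers, and like patterns by Pearson's r, and genes named besides these were chosen after their values were seen. No read sharing was corrected. Some genes that these rules name are not reported here.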

Additional observations from a re-analysis of the deposited data

How the results depend on the processing

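None of the 10 members was called in any of the 17 alternatives tried. Over all genes tested, 2 genes were called as reported, and 1 with a pseudocount of 4, with no filter, with a filter of 5 CPM or with limma-voom. In the libraries of high Xist level 24 were called. Without KO replicate 1 and WT replicate 2, the pair highest in the interferon signature, 12 were called, a choice added after the data were seen. With 1 library left out the count was 1 to 8, namely 8 without WT replicate 2 and 1 without any of the other 5. Members without overlap numbered 0 to 4 with 1 library left out (4 without WT replicate 2, against 30.1% of all genes). They numbered 8 in the high-Xist libraries (42.8% of all genes) and 4 without KO replicate 1 and WT replicate 2 (41.2% of all genes). The median of the members was −0.011 to 0.19 with 1 library left out and 0.23 in the high-Xist libraries. The cause was not tested.

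Log2 fold changes turned sign with 1 library left out for H2-Aa (−0.045 to 0.22), H2-DMb1 (−0.088 to 0.069), Cd74 (−0.055 to 0.17), Ciita (−0.16 to 0.012), Cd80 (−0.068 to 0.20), Cd86 (−0.16 to 0.20) and Cd40 (−0.024 to 0.31). The sign held for H2-Ab1 (0.029 to 0.26), H2-Eb1 (0.19 to 0.53) and H2-DMa (−0.21 to −0.0079). H2-DMb1 was −0.00090 with the reads of the table as library sizes and −0.035 in the high-Xist libraries. Cd80 was −0.064 and Cd86 0.38 in the high-Xist libraries, and without KO replicate 1 and WT replicate 2 they were −0.090 and 0.086. The replicate numbers were not used as pairs, as correlations of deviations were −0.22, −0.13 and 0.14 for numbers 1 to 3. These correlations cannot exclude a pairing, and Xist was low in replicate 2 of both genotypes. With the replicate block 0 members and 2 genes were called. With a filter of 5 CPM, Ciita was not tested. At 22 to 39 reads per library, Ciita is limited by depth.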
